A study of Mus musculus with 16 samples.

Results

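The 4 stress keratins of the mouse, Krt6a, Krt6b, Krt16 and Krt17, were followed by RNA-seq in cells isolated from footpad epidermis 6 hr after an injection of papain or vehicle, in mice kept on 2 diets. Members were chosen by name, as the rows of the deposited count table whose Ensembl identifiers carry these symbols, and they make up 4 of the 50600 rows and 4 of the 55 keratin genes in it. All 4 were measured, and all 4 passed the filter on low counts that left 22155 genes for testing.

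Keratins are the proteins of the intermediate filaments of epithelial cells, and a filament is built from pairs of a type II keratin (here Krt6a and Krt6b) with a type I keratin (here Krt16 and Krt17). Resting interfollicular epidermis is built mainly from Krt5 with Krt14 in the basal layer and Krt1 with Krt10 in the layers above it. The stress keratins are low there, are part of hair follicle, nail and footpad epithelium, and are known to be made by interfollicular keratinocytes after wounding, irritation or inflammation. For this reason they are widely read as markers of an activated keratinocyte.

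The mice were female C57/B6J. All of them ate the same purified diet (AIN-93M) from 5 wk of age for 3 wk, either as such (the AhR-poor diet, SYNTH in the labels) or with 200 ppm of indole-3-carbinol (the I3C diet), a plant compound that gives rise to ligands of the aryl hydrocarbon receptor (AhR). They then received 50 μl of PBS (vehicle) or 50 μg of papain, a plant protease used as a model allergen, in the footpad. Each of the 4 groups had 4 libraries, 1 mouse each as far as the labels tell. Mice on one diet were housed together, so diet and cage cannot be told apart, and the labels do not say which library went to which sequencing unit.

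Library totals ranged from 22500821 to 51844375 counts, and levels are given as CPM, each gene's counts as a part of its library total after scaling with edgeR. A count of 3 corresponds to between 0.0569 and 0.130 CPM. In keeping with the label, keratinocyte keratins were abundant, and Krt5, Krt14, Krt1 and Krt10 held from 7.75% to 31.6% each of all keratin counts. Krt9, the type I keratin that defines footpad (plantar) epidermis, was low, with group means between 0.311 and 6.52 CPM. Markers of other cells were present at low levels and differed between the groups. The summed level of 11 dermal fibroblast markers averaged 92.2 CPM with vehicle and 163 CPM with papain for I3C-fed mice, and 209 and 737 CPM for AhR-poor-fed mice, in the same order. The single markers moved differently with papain on the 2 diets. In I3C-fed mice 4 of the 11 had a log2 fold change above 0, with a median of -0.25. There 1 (Dcn) was called lower (-1.73), beside 5.29% of all tested genes. The highest value was that of Thy1 (0.96), which T cells also make. In AhR-poor-fed mice all 11 were called higher (1.25 to 3.78), beside 6.04%. Between the diets the single markers lay further apart than the sums. On the AhR-poor diet 10 of the 11 were called higher than on the I3C diet with vehicle (median log2 difference 4.15) and with papain (6.51). Over all tested genes 1.59% and 7.24% were called in either direction. The sum of 10 measured neutrophil markers had means of 1.27, 58.7, 4.75 and 333 CPM for the same 4 groups. In bulk samples, fewer cells of a type and less RNA per cell cannot be told apart.

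The members lie in the 2 keratin gene clusters (GENCODE M21, GRCm38), all on the minus strand. Krt6b (chr15:101676023-101680287, 9 exons) and Krt6a (chr15:101689910-101694307, 9 exons in the coding transcript) are neighbours, 9622 bases apart, in the type II cluster. Krt16 (chr11:100246091-100248902, 8 exons) and Krt17 (chr11:100256217-100261029, 8 exons) are neighbours, 7314 bases apart, in the type I cluster.

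Krt6a and Krt6b are close copies, and how far their reads can be told apart bears on every value given for either of them. Their coding sequences, 1659 and 1662 bases without the stop codon, were 97.8% identical over 1659 aligned bases, with 37 differing bases. A stretch of 280 bases (positions 34 to 313 of both coding sequences, counted from the A of the start codon) held no difference at all. The 90-base coding stretch with the most differences, positions 787 to 876 of both coding sequences, held 12 of the 37 and is shown for this reason. The untranslated parts of the transcripts were not aligned. Capitals mark the bases that differ.

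Krt6a: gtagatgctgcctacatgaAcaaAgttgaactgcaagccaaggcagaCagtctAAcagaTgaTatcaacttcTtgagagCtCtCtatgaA

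Krt6b: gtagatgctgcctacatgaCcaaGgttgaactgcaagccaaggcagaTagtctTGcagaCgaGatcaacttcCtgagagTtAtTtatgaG

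Of all windows of 100 bases, the read length of this study, 34.0% of the Krt6a transcript and 30.6% of the Krt6b transcript were found unchanged in a transcript of another gene, in both cases including the other of the pair. For Krt16 the share was 24.3%, including windows shared with Krt14, a type I keratin of the basal layer. Krt17 had no shared window. Reads were sequenced in pairs, and these shares take each window alone, so they are not shares of read pairs that fit 2 genes. Krt16 and Krt17 were 78.9% identical over 1278 aligned coding bases. How the authors' counting treated reads that fit 2 genes is not given in the sources used here, so the split of reads between Krt6a and Krt6b is uncertain to that extent, and their sum is given beside them. On the opposite strand, annotated genes overlap 600 exonic bases of Krt6a (Gm49428 and Gm44342) and 129 of Krt6b (Gm44383), and none overlaps exons of Krt16 or Krt17. Gm44342 was at most 2.05 CPM and Gm44383 at most 0.706 CPM in any library. The strand setting of the counting is not given in the sources used here, so reads of the 2 strands cannot be told apart there.

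Papain raised all 4 stress keratins on both diets. On the I3C diet Krt6b rose by the most, from a mean of 3.95 ± 3.86 CPM (SD, n = 4) to 1187 ± 464 CPM, followed by Krt6a, Krt16 and Krt17, and on the AhR-poor diet the rises were 44.6-fold for Krt6b, 15.8-fold for Krt16, 15.04-fold for Krt6a and 3.59-fold for Krt17. The 4 called of 4 compare with 3.69% of all tested genes called higher with papain on the I3C diet and 6.04% on the AhR-poor diet, where a call means an adjusted p below 0.01 and a change of more than 2-fold in edgeR's quasi-likelihood test. The median log2 fold change of the 4 was 4.47 on the I3C diet and 3.94 on the AhR-poor diet, beside -0.04 and -0.0044 over all genes tested.

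**Figure D1:**
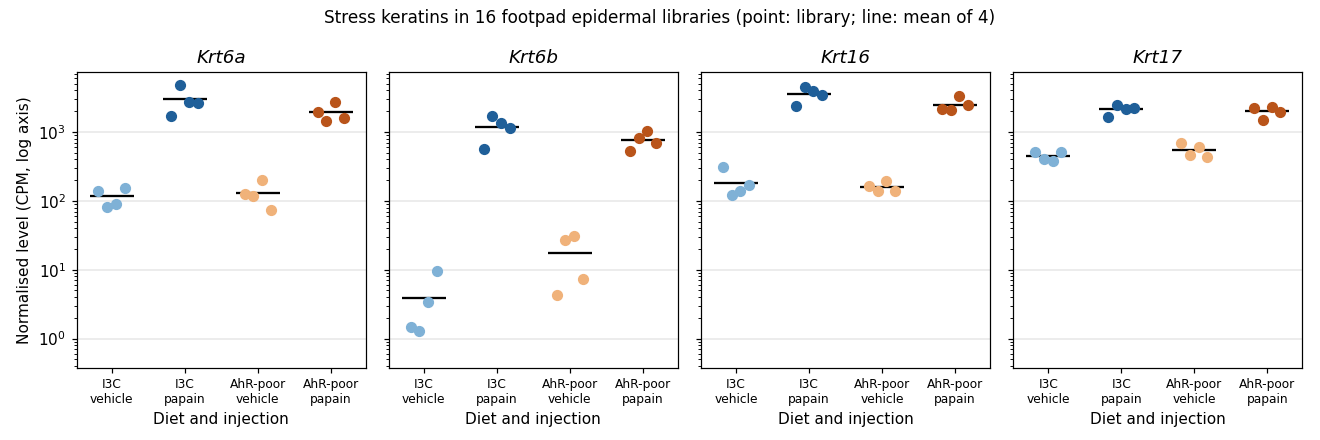
Level of each stress keratin (CPM, log axis) in the 16 libraries, by diet and injection; each point is a library and each line the mean of 4. All papain libraries lie above all vehicle libraries for every member, and the Krt6b vehicle libraries lie between 1.30 and 30.4 CPM. The share of all tested genes without such overlap is not given.

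Krt6a, a type II keratin, was the higher of the Krt6 pair in every library. On the I3C diet it was at 139, 80.6, 89.9 and 155 CPM in the vehicle libraries T108, T109, T110 and T111, and at 1704, 4750, 2724 and 2654 CPM in the papain libraries T106, T113, T114 and T115. With the AhR-poor diet the vehicle libraries T100 to T103 held 124, 117, 201 and 72.8 CPM, and the papain libraries T104, T105, T107 and T112 held 1946, 1459, 2765 and 1576 CPM. The lowest papain library was far above the highest vehicle library on both diets, and T113 stood highest of all. The log2 fold change was 4.67 (SE 0.42, adjusted p = 1.0e-06, edgeR) on the I3C diet and 3.91 (SE 0.40, adjusted p = 6.9e-06) on the AhR-poor diet.

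Krt6b, its neighbouring copy, was close to silent in several vehicle libraries. On the I3C diet the vehicle libraries, in the same order, held 1.49, 1.30, 3.46 and 9.54 CPM, which rest on 52, 51, 127 and 318 counts, and the papain libraries held 574, 1684, 1338 and 1150 CPM. On the AhR-poor diet vehicle libraries held 4.28, 27.03, 30.4 and 7.29 CPM and papain libraries 533, 819, 1046 and 689 CPM. Vehicle levels were the most scattered of any member, with a 7.34-fold range among the 4 vehicle libraries on the I3C diet and 7.11-fold on the AhR-poor diet, against 1.36-fold to 2.77-fold for the other members. The log2 fold change with papain was 8.25 (SE 0.86, adjusted p = 6.1e-06, edgeR) on the I3C diet, the second highest of all genes tested, and 5.48 (SE 0.75, adjusted p = 8.7e-05) on the AhR-poor diet. Leaving out T111, the vehicle library with the most Krt6b on the I3C diet, moved the first value to 9.16.

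Krt16, the type I partner of Krt6, had vehicle levels of 306, 121, 141 and 168 CPM in I3C-fed mice and 164, 138, 195 and 137 CPM in AhR-poor-fed mice. Papain libraries held 2354, 4487, 3966 and 3450 CPM with I3C and 2135, 2111, 3295 and 2454 CPM without it. T108 stood apart among the vehicle libraries, at 306 CPM, and still lay far below every papain library. The log2 fold changes were 4.28 (SE 0.31, adjusted p = 1.2e-07, edgeR) and 3.98 (SE 0.31, adjusted p = 4.3e-07).

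Krt17, a type I keratin that also binds signalling proteins in the cytoplasm, had vehicle levels of 511, 401, 382 and 518 CPM in I3C-fed mice and 698, 468, 613 and 432 CPM in AhR-poor-fed mice. After papain it was at 1662, 2469, 2135 and 2222 CPM in the former and at 2244, 1471, 2313 and 1923 CPM in the latter. Its libraries scattered by 1.36-fold to 1.62-fold within a group, and papain and vehicle did not overlap. The log2 fold changes, 2.23 (SE 0.18, adjusted p = 1.0e-07, edgeR) and 1.85 (SE 0.18, adjusted p = 1.2e-06), were the lowest of the 4 members, and their intervals (1.84 to 2.61 and 1.47 to 2.23) did not reach those of the other 3 members.

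Taken as 1 gene, Krt6a and Krt6b together rose from 120 ± 39.0 to 4145 ± 1717 CPM on the I3C diet (log2 fold change 5.11, SE 0.42) and from 146 ± 63.2 to 2709 ± 741 CPM on the AhR-poor diet (4.21, SE 0.41). For each of the 4 members and for this sum, an exact two-sided permutation test of 4 against 4 libraries gave p = 0.0286, the smallest that 70 splits allow, on each diet. These p-values measure the spread between mice within 1 experiment. The share of all tested genes that reach the same smallest p is not given here, so this p alone does not set the members apart.

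Within the papain groups the members largely ranked the libraries alike. On the I3C diet T113 was the highest and T106 the lowest of the 4 papain libraries for all 4 members, and on the AhR-poor diet T107 was the highest for all 4. Over all 16 libraries the log2 ratio of Krt16 to Krt6a had an SD of 0.33, although each gene alone varied with an SD of 2.18 and 2.28. The other 5 pairs had SDs from 1.14 to 2.93. Within the groups the pairs without Krt6b had SDs of 0.30 to 0.34, and the 3 pairs with Krt6b had SDs of 0.86 to 1.04. These are descriptions over 16 libraries that share a papain effect, and pairs within a library also share its depth and preparation.

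Levels of different members can only be compared per length of transcript, as CPM per kb of exon. In all 8 vehicle libraries the order was Krt17, Krt16, Krt6a and Krt6b. The group means on the I3C diet with vehicle were 292 ± 46.0, 117 ± 53.3, 48.0 ± 15.1 and 1.77 ± 1.73 CPM per kb in that order (SD, n = 4), and on the AhR-poor diet Krt17 was at 356 ± 80.4, Krt16 between 87.5 and 125, Krt6a at 53.2 ± 22.1 and Krt6b at 7.72 ± 5.98. After papain Krt16 led in 7 of the 8 libraries, with 2277 ± 582 CPM per kb on the I3C diet and 1597 ± 354 on the AhR-poor diet. Krt17 followed with 1368 ± 218 and 1281 ± 248, then Krt6a with 1223 ± 530 and 801 ± 244, and Krt6b with 531 ± 208 and 345 ± 97.0. Within a papain library, Krt16 lay above Krt17 in 7 of 8, Krt17 above Krt6a in 7 of 8 and Krt6a above Krt6b in 8 of 8. Over the libraries of a diet the ranges of Krt16 and Krt17 overlapped, and so did those of Krt17 and Krt6a, while on the AhR-poor diet the highest Krt6b library (468) lay below the lowest of Krt6a (604).

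The balance between the types also differed. Krt6a and Krt6b together, per kb, came to 0.120 ± 0.0236 of Krt16 and Krt17 together in the vehicle libraries of the I3C diet and to 0.467 ± 0.101 after papain, and to 0.132 ± 0.0462 and 0.396 ± 0.0480 on the AhR-poor diet. The vehicle ratios, 0.0911 to 0.186, did not overlap the papain ratios, 0.342 to 0.610. No test was run on this ratio, which is set by the different rises described above.

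Within the Krt6 pair, Krt6b held a larger share of the counts with papain. Krt6b made up 1.06%, 1.59%, 3.70% and 5.81% of the Krt6a and Krt6b counts in T108, T109, T110 and T111, and 25.2%, 26.2%, 32.9% and 30.2% in T106, T113, T114 and T115. On the AhR-poor diet its share was 3.33%, 18.8%, 13.1% and 9.11% in T100 to T103 and 21.5%, 36.0%, 27.4% and 30.4% in T104, T105, T107 and T112. The exact binomial 95% interval was widest for T103, from 8.10% to 10.2%, and covers counting error only. The mean share was 25.6 percentage points higher with papain on the I3C diet and 17.7 on the AhR-poor diet, and papain and vehicle did not overlap on either (exact two-sided permutation p = 0.0286 each, 0.0571 after Benjamini-Hochberg adjustment over 8 comparisons of shares). Leaving out T100, T103, T105 or T112 gave an exact permutation p = 0.0571 for AhR-poor-fed mice before adjustment. The difference between the diets in vehicle libraries, 8.06 points, had an exact permutation p = 0.0857 (adjusted 0.137), and p = 0.0286 without T100, while after papain the diets lay 0.194 points apart (exact p = 0.943).

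**Figure D2:**
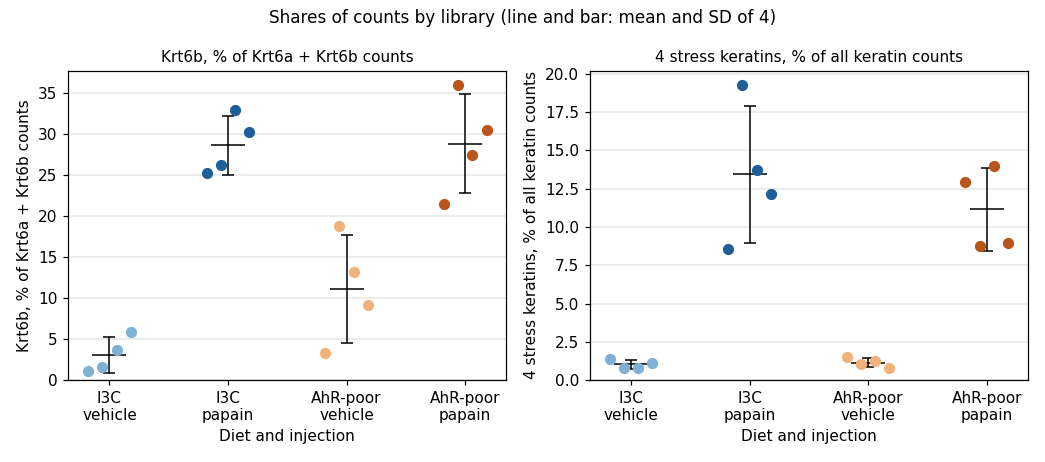
Left, Krt6b as a percentage of Krt6a and Krt6b counts; right, the 4 stress keratins as a percentage of all keratin counts; each point is a library, with the mean and SD of 4. The Krt6b share lies between 1.06% and 18.8% with vehicle and between 21.5% and 36.0% with papain, and the mean share of the 4 stress keratins is 1.03% and 1.13% with vehicle and 13.4% and 11.2% with papain.

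The stress keratins took a larger part of all keratin transcripts after papain. They made up 1.03% ± 0.292 (SD, n = 4) of the counts of all keratin genes with vehicle and 13.4% ± 4.45 with papain on the I3C diet, and 1.13% ± 0.307 and 11.2% ± 2.71 on the AhR-poor diet. Each papain group lay wholly above its vehicle group (exact permutation p = 0.0286, adjusted 0.0571). Keratin genes as a whole took 7.36% and 7.07% of the library on the I3C diet and 7.85% and 6.73% on the AhR-poor diet, vehicle first.

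Other epidermal keratins were not called higher. Of 14 tested members of a list of other epidermal keratins, 0 were called higher on either diet by edgeR or by DESeq2, with 0 higher at an unadjusted p below 0.05, and 1, Krt15, a marker of quiescent basal cells, fell, by 1.93 on the log2 scale on the I3C diet (adjusted p = 2.4e-07) and by 1.38 on the AhR-poor diet (adjusted p = 1.1e-05). At an unadjusted p below 0.05, 5 and 4 of the list were lower on the 2 diets, and DESeq2 called 2 and 1 lower. Krt9 had a log2 fold change of -2.64 on the I3C diet (SE 0.84, adjusted p = 0.026, not called). The edgeR calls stand beside 5.29% and 2.42% of all genes called lower with papain on the 2 diets. The median of the list was -0.28 and -0.31. The basal pair had log2 fold changes of -0.48 and -0.29 for Krt5 and -0.34 and -0.08 for Krt14. Krt5 is the nearest protein-coding gene to Krt6a on the side away from Krt6b. Krt14 is the nearest to Krt16 on the side away from Krt17. The suprabasal pair had values of 0.21 and 0.01 for Krt1 and -0.05 and -0.44 for Krt10. None of these reached a 2-fold change.

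Of all keratin genes 51 were tested, 25 of them in the type II cluster and 25 in the type I cluster. With papain 6 of them were called higher on the I3C diet, beside 3.69% of all tested genes. On the AhR-poor diet 5 were, beside 6.04%, and the 4 members were among them on both diets. The further ones, named after their values were seen, were Krt75 and Krt84 on the I3C diet and Krt33b on the AhR-poor diet. Krt75, a companion keratin of the hair follicle and close to Krt6b in the cluster, had group means of 1.62 CPM with vehicle and 7.95 CPM with papain on the I3C diet (log2 fold change 2.29, adjusted p = 0.0041) and of 2.89 and 7.22 CPM on the AhR-poor diet (1.31, adjusted p = 0.066). Lower calls were Krt12, Krt15 and Krt32 on the I3C diet and Krt12 and Krt15 on the AhR-poor diet. These 3 and 2 of 51 stand beside 5.29% and 2.42% of all tested genes, so the 3 lay near the share of all genes. On the far side of Krt6b the nearest protein-coding gene is Gm5478, with no more than 0.130 CPM in any library, and beside Krt17 lies Krt42, with 0.484 to 4.17 CPM and log2 fold changes of -0.43 and 0.14, neither called.

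**Figure D3:**
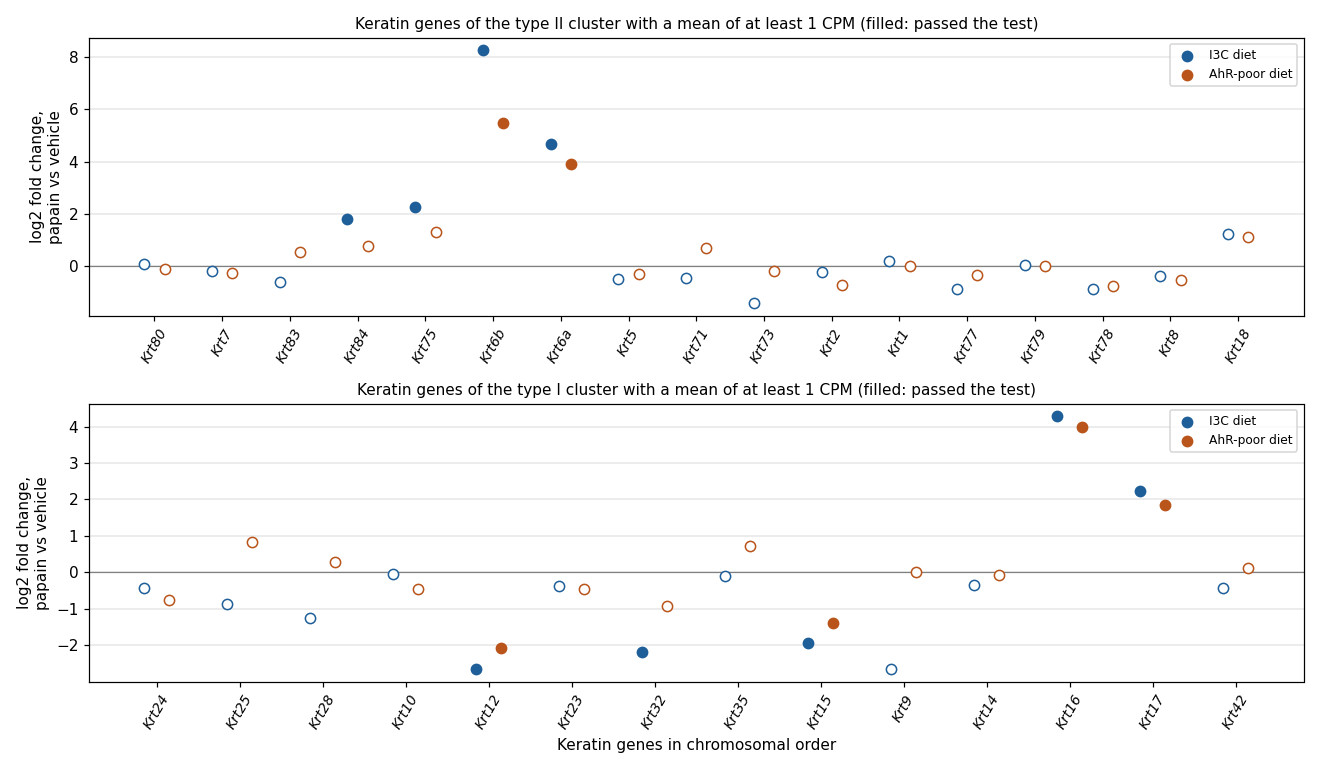
Log2 fold change with papain on the I3C diet and on the AhR-poor diet for the 17 type II cluster genes and 14 type I cluster genes with a mean of at least 1 CPM, in chromosomal order; filled points passed the test. Krt6b and Krt6a (8.25 and 4.67 on the I3C diet) and Krt16 and Krt17 (4.28 and 2.23) stand next to each other as 2 raised pairs. Krt75, the plotted gene on the other side of Krt6b, was also called higher on the I3C diet (2.29) but not on the AhR-poor diet (1.31). Krt5, Krt14 and Krt42, also beside the pairs, lie between -0.48 and 0.14.

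Diet alone changed no stress keratin past the test. With vehicle, the AhR-poor diet against the I3C diet had log2 differences of 0.15 for Krt6a (95% interval -0.62 to 0.92), 2.15 for Krt6b (0.61 to 3.69), -0.21 for Krt16 (-0.80 to 0.37) and 0.29 for Krt17 (-0.08 to 0.66). By edgeR 0 of the 4 were called, 1 (Krt6b) had an unadjusted p below 0.05, and DESeq2 also called 0, beside 1.59% of all genes called in either direction.

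Krt6b came closest to a diet difference with vehicle. Its mean was 3.95 CPM in I3C-fed and 17.3 CPM in AhR-poor-fed mice, a fitted 4.43-fold difference, and its adjusted p was 0.172 in edgeR (unadjusted 0.010). Libraries T101 and T102 on the AhR-poor diet lay above all others, while T100 and T103 lay within the range of the I3C diet, so the groups overlapped (exact permutation p = 0.114). Over the fits that left out 1 library the log2 difference lay between 1.70 (without T102) and 3.06 (without T111), with edgeR adjusted p-values from 0.058 to 0.405. Under other processing settings, by edgeR or DESeq2, adjusted p-values ran from 0.0455 to 0.299. The lowest thus lay below 0.05 but not below 0.01. The markers of other cells named above moved the same way between these groups, with endothelial sums of 0.948 to 3.52 CPM in I3C-fed mice and of 14.5 to 38.4 CPM in AhR-poor-fed mice. Their part in the difference was not tested.

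After papain the AhR-poor diet gave lower means for all 4 members, and none passed. The log2 differences were -0.61 for Krt6a (95% interval -1.38 to 0.16), -0.62 for Krt6b (-1.95 to 0.71), -0.51 for Krt16 (-1.10 to 0.07) and -0.09 for Krt17 (-0.46 to 0.27). The groups overlapped for every member, and 0 of 4 were called by edgeR or by DESeq2 with 0 unadjusted p-values below 0.05, beside 7.24% of all genes called. The intervals still hold differences of more than 2-fold for Krt6a, Krt6b and Krt16, so equal levels on the 2 diets were not shown. With library size alone as the scaling, the value of Krt17 was 0.016. In the same comparison edgeR called 2 of the 14 other epidermal keratins higher on the AhR-poor diet, Krt9 (4.38, SE 0.83) and Krt77 (2.10, SE 0.44), and 1 of the 16 simple and appendage keratins, Krt73 (2.14, SE 0.51).

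The difference between the papain effects on the 2 diets was tested as an interaction. It was -0.76 for Krt6a, -2.77 for Krt6b, -0.30 for Krt16 and -0.38 for Krt17 on the log2 scale, where a negative value stands for a smaller fitted rise on the AhR-poor diet. With edgeR 0 of 4 passed an adjusted p of 0.05, beside 0.329% of all genes, 1 (Krt6b) had an unadjusted p below 0.05, and DESeq2 called 0. For Krt6b the interval was -4.80 to -0.73 and the adjusted p 0.249, the value was -3.67 without T111, and most of the value lies in the vehicle libraries, since its papain levels differed by -0.62 and its vehicle levels by 2.15.

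**Figure D4:**
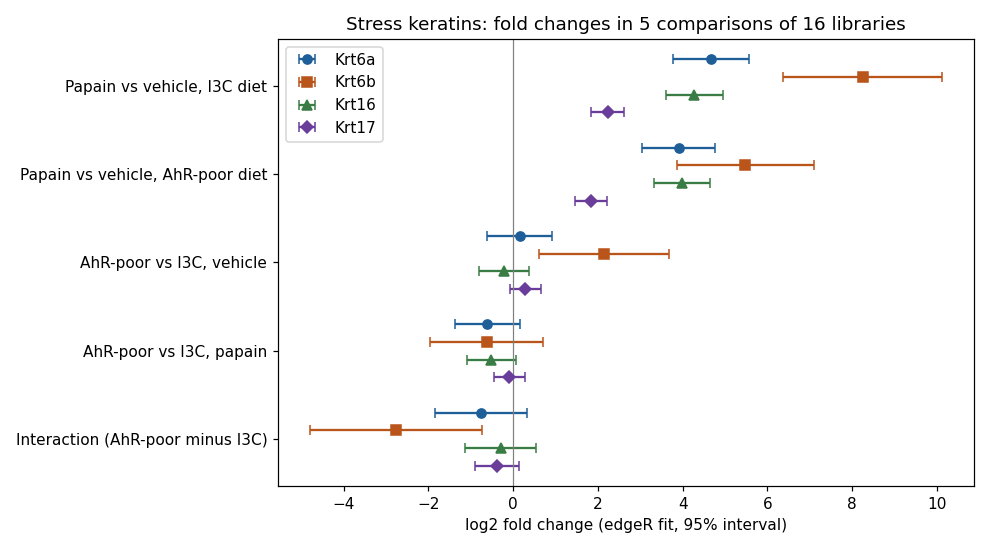
Log2 fold changes of the 4 stress keratins with 95% intervals from the edgeR fit of 16 libraries, in 2 papain comparisons, 2 diet comparisons and their interaction. All papain values lie above 0, from 1.85 to 8.25, while of the diet and interaction intervals only those of Krt6b with vehicle (0.61 to 3.69) and in the interaction (-4.80 to -0.73) leave out 0.

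The genes whose levels ran most like each member were sought over all 16 libraries, as those with a mean of at least 1 CPM whose log2 ratio to the member varied least. For Krt6a these were Gsta4, a glutathione transferase (SD 0.31), Krt16 (0.33), Cadm4, a cell adhesion molecule (0.45), Rab31, a small GTPase of vesicle transport (0.46), and Slpi, an inhibitor of leukocyte proteases (0.47). For Krt16 they were Krt6a, Gsta4 (0.36), Rab31 (0.43), Cadm4 (0.45) and Serpinb1a, another protease inhibitor (0.45).

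Krt17 itself varied less over the 16 libraries, with an SD of 1.09 against 2.28 for Krt6a and 2.18 for Krt16. Its companions had lower SDs of the ratio than those above. They were Cyp27b1, the enzyme that makes active vitamin D (0.19), Defb1, a beta-defensin (0.19), Tpm2, a tropomyosin of actin filaments (0.20), Fscn1, an actin-bundling protein (0.24), and Ehf, an epithelial transcription factor (0.25). Their log2 fold changes with papain on the I3C diet lay between 1.91 and 2.21. A value near the 2.23 of Krt17 follows from how they were chosen. For Krt6b, which itself had an SD of 3.94, no gene had so low an SD of the ratio. The nearest were Defb14, a beta-defensin (1.34), Gm5416 (1.34), Serpina3n, a secreted protease inhibitor (1.39), Gjb1, a connexin (1.39), and Antxrl (1.45). All of these but Serpina3n averaged 0.0404 to 0.105 CPM with vehicle on the I3C diet. That is near the level of 3 counts in a library, so their ratios there rest on few counts. With a minimum of 10 CPM, 4 of the 5 genes stayed for Krt6a, Krt16 and Krt17, and 1 of 5, Serpina3n, for Krt6b.

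Other genes of activated keratinocytes rose with the stress keratins. Of 34 tested members of that list (cornified envelope precursors, antimicrobial proteins and their like), 27 were called higher on the I3C diet, with a median log2 fold change of 3.80, and 25 in AhR-poor-fed mice, with a median of 2.88. These are 79.4% and 73.5% of the list, beside 3.69% and 6.04% of all tested genes. The first median is 3.48 with Defb4 and Lce3b, which had no count in any vehicle library of that diet, set to the bound that 3 counts per library give. Defb4, a beta-defensin and the highest by fitted value, was at 0.0974 to 0.577 CPM in the papain libraries, so no fold is given for it. Next on the I3C diet were S100a8, a calcium-binding antimicrobial protein (log2 fold change 6.43, SE 0.86), and Defb14 (6.05, SE 0.53). On the AhR-poor diet they were S100a9, the partner of S100a8 (6.74, SE 0.63), S100a8 (6.20, SE 0.71) and Lcn2, an iron-binding antimicrobial protein (5.33, SE 0.28). S100a8 and S100a9 also mark neutrophils and are themselves part of the neutrophil marker sum, which was higher with papain. Of the 10 tested neutrophil markers 3 were called higher on the I3C diet, S100a8, S100a9 (5.70) and Cxcr2, a chemokine receptor (5.10, SE 0.30), and 7 on the AhR-poor diet. Their sum ranged from 0.861 to 1.92 CPM with vehicle and from 44.6 to 74.6 CPM with papain on the I3C diet, and from 4.13 to 5.59 and from 81.0 to 552 CPM on the AhR-poor diet. On the I3C diet Ly6g had no count in any of the 8 libraries, and Ngp and Camp had none in the 4 papain libraries. On the AhR-poor diet Ly6g was at 0 with vehicle and at 0.218 to 2.51 CPM with papain. The part of neutrophil RNA in these results was not tested.

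Some ligands that are known to act on keratinocytes rose as well. Of 22 tested, 7 (31.8%, beside 3.69% of all tested genes) were called higher on the I3C diet, with a median of 0.75. On the AhR-poor diet 11 (50%, beside 6.04%) were called higher, with a median of 1.39. The highest on the I3C diet were Il1b (4.04, SE 0.93), Il19 (2.70, SE 0.61) and Il24 (2.68, SE 0.40), and on the AhR-poor diet Il1b (6.50, SE 0.74), Osm (5.68, SE 0.58), a cytokine of the interleukin-6 family, and Il19 (3.94, SE 0.58). In papain libraries 4 of the 22 ligands (18.2%) were called higher on the AhR-poor diet, beside 7.24% of all genes called in either direction. Among the 4 were Osm (5.92, SE 0.59), Il1b (5.23, SE 0.69) and Il6 (1.89, SE 0.41). The summed markers of neutrophils and of monocytes and macrophages differed between the same groups (monocyte and macrophage sums of 11.7 to 36.6 CPM in I3C-fed mice and 89.0 to 273 CPM in AhR-poor-fed mice), and their part was not tested. In the same comparison 3 of the 34 activated keratinocyte genes (8.82%) were called higher, near the 7.24% of all genes. They were S100a9 (3.25), Plaur, the receptor of urokinase (1.77), and Hmox1, haem oxygenase (1.48). The median of the list was -0.23.

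**Figure D5:**
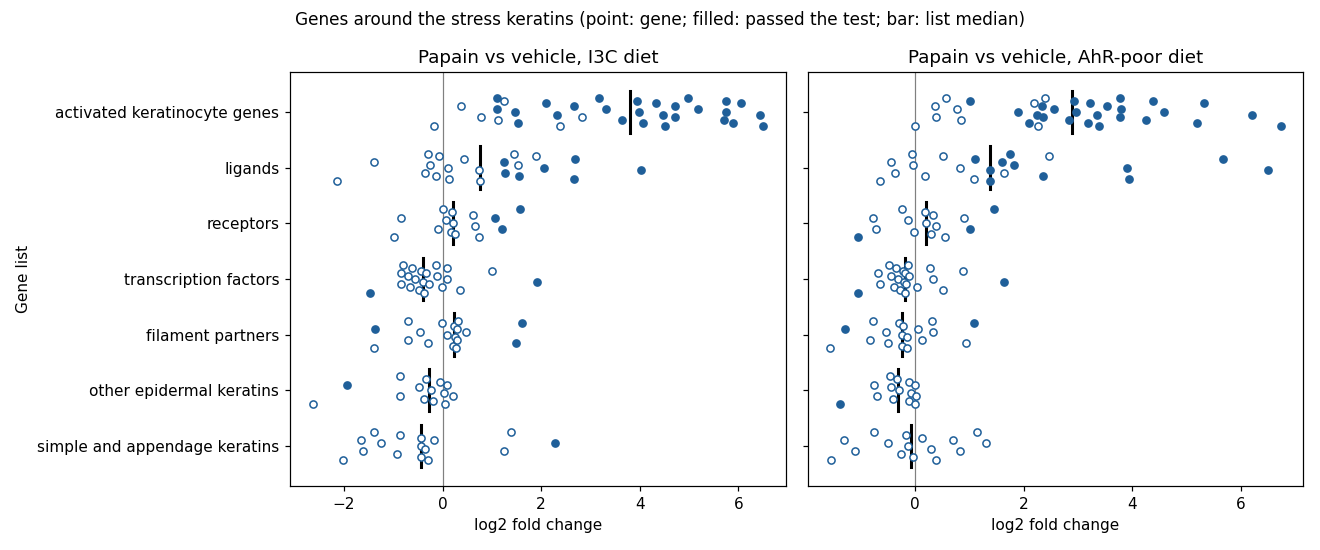
Log2 fold change with papain on each diet for the tested genes of 7 lists; each point is a gene, filled where it passed the test, and the bar is the median of the list. The activated keratinocyte genes stand to the right, with medians of 3.80 and 2.88, and the lists of receptors, transcription factors, filament partners and other keratins centre near 0.

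Among 15 receptors for these ligands, 3 (20%, beside 3.69% of all tested genes) were called higher on the I3C diet, Ifngr1, a chain of the interferon gamma receptor (1.58, SE 0.09), Osmr, the oncostatin M receptor (1.21, SE 0.13), and Il6st, the shared signalling chain of the interleukin-6 family (1.07, SE 0.14). On the AhR-poor diet 2 (13.3%, beside 6.04%) were called higher, Ifngr1 (1.46) and Osmr (1.01), and 1 lower, Il20rb (-1.05). The medians were 0.22 and 0.20.

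Among 22 transcription factors with a known part in keratin or stress gene control, 1 was called lower on each diet (beside 5.29% and 2.42% of all tested genes), Gli2, a factor of the hedgehog pathway, which fell by 1.48 and 1.06 on the log2 scale. In the interaction 1 of the 22, Cebpb, passed at 0.75 (SE 0.15, adjusted p = 0.041, edgeR), beside 0.329% of all genes. This count of 1 changed in 12 of 24 other settings or fits without 1 library, between 0 and 2.

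Of 18 partners of keratin filaments, desmosomal proteins and linkers, 2 were called higher and 1 lower on the I3C diet and 1 and 1 on the AhR-poor diet. Over all tested genes 3.69% were called higher and 5.29% lower on the I3C diet and 6.04% and 2.42% on the AhR-poor diet, so that the 1 of 18 higher on the AhR-poor diet (5.56%) and the 1 of 18 lower on the I3C diet lay near the share of all genes. Dsc2 (1.61, SE 0.18) and Dsg3 (1.49, SE 0.24), both desmosomal cadherins, rose on the I3C diet and Dsg3 (1.08) on the AhR-poor diet, while Dst, which anchors keratin filaments at the basement membrane, fell by 1.36 and 1.28. With vehicle 1 of the 18, Pkp2, a desmosomal plaque protein, was higher on the AhR-poor diet (1.53, adjusted p = 0.0099, edgeR). Over all genes 1.59% were called in either direction. The call lay at the cutoff of 0.01. This count of 1 changed in 17 of 26 other settings or fits without 1 library, down to 0. Of 16 tested simple and appendage keratins, 1, Krt75, was called higher on the I3C diet, and on the AhR-poor diet edgeR called 0 higher, with 2 at an unadjusted p below 0.05 and 1 called by DESeq2.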

How the data were processed

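Epidermal cells of 16 mice were profiled by stranded, paired-end mRNA sequencing. The authors aligned reads with STAR to mm10 and deposited raw counts per Ensembl gene; the counting tool, annotation release and strand setting are not given in the sources used here. The submitters' processing notes also name FastQC and DESeq2. Of 50600 rows, 50376 matched a symbol.

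Genes with at least 10 counts over all libraries were kept, scaled by TMM (factors 0.937 to 1.07) and fitted over the 4 groups with edgeR 4.0.16 in R 4.3.3 (quasi-likelihood test, Benjamini-Hochberg adjustment over 22155 genes). A gene was called where its adjusted p was under 0.01 and its log2 fold change beyond 1, and interactions an adjusted p below 0.05. Fold change intervals are 95%. DESeq2 1.42.0 was an alternative. The fits were tested on simulated data. Replicate libraries differed by at least 10.2 times counting noise (chi-square per degree of freedom), so none was counted as a duplicate. Exact permutation tests over 4 against 4 libraries served single values, and their smallest p is 0.0286.

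Positions and exon lengths came from GENCODE M21 (GRCm38), and coding sequences, aligned with Biopython 1.88, from its transcripts. The members, and lists of genes around them, were chosen with earlier results of these data known. The genes named were the members, their nearest protein-coding neighbours, at most 3 called genes with the largest change per list and comparison, and the 5 genes most like each member, with exceptions marked in the text. Of the lists, Krt76, Krt26, Sprr3 and Lce3a were too low to test. Il36a, Il36b and Il36g were read under the older symbols Il1f6, Il1f8 and Il1f9. One result is not reported here.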

Additional observations from a re-analysis of the deposited data

Results flagged for a closer look

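The summed level of Krt6a and Krt6b was 3811 CPM in T107, a papain library on the AhR-poor diet, against 2266 to 2479 CPM in the other 3 libraries of its group. Its gap to the nearest library was 0.862 of the range of the group, above the 95% critical value of Dixon's test for 4 samples. This was the 1 group of 32 tested (8 measures in 4 groups) to pass, and chance alone gives about 1 in 20. Without T107 the log2 fold change of the sum with papain on the AhR-poor diet was 4.01 in place of 4.21.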

How the results depend on the processing

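The papain calls of all 4 stress keratins and of the Krt6a and Krt6b sum kept their direction and their call on both diets under RLE factors, library size only, 3 other count filters, DESeq2, fits of the compared libraries alone, an adjusted p of 0.05, no minimum fold change, totals without keratin genes, and without each of the 16 libraries in turn. No member was called for diet or interaction under any of them. Counting depth limits Krt6b in vehicle libraries, where the lowest held 51 counts. Small diet differences changed sign: Krt17 after papain was 0.016 with library size only, and lay between -0.19 and 0.0076 over the fits without a library. With vehicle, over those fits, Krt16 lay between -0.37 and 0.15, Krt6a between -0.16 and 0.33, the Krt6 sum between -0.045 and 0.48, and the stress keratin share of keratin counts between -0.022 and 0.225 points (leaving out libraries for this share was chosen after seeing the data). The diet difference in the Krt6b share after papain lay between -2.18 and 2.64 points and with vehicle between 5.48 and 10.6 points, and its rise with papain on the AhR-poor diet between 15.1 and 20.3 points.

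Counts of called genes over all tested moved more. With at least 10 counts in every library, the higher and lower papain calls on the AhR-poor diet were 651 and 346 in place of 1338 and 536, and the diet calls 58 with vehicle and 561 with papain in place of 352 and 1605, with fewer genes tested. DESeq2 gave 595 diet calls with vehicle and 529 interaction calls in place of 73. At an adjusted p of 0.05 there were 587 diet calls with vehicle, and at 0.01 there were 4 interaction calls. With no minimum fold change the papain calls were 2821 higher and 2864 lower on the I3C diet (818 and 1171 with it) and 2749 and 2228 on the AhR-poor diet, and the diet calls with papain 2482. Without 1 library the diet calls with vehicle ranged from 194 to 430 and the interaction calls from 10 (without T108) to 422 (without T106). The cause was not tested. No paired analysis was possible because the library codes are not shared between groups.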
